A study of Mus musculus with 6 samples.

Results

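A set of 10 genes that mark fibroadipogenic progenitors and other fibroblasts were followed in calf muscle (gastrocnemius) of aged and young male mice. They were Pdgfra, Cd34, Ly6a, Pi16, Dpt, Clec3b, Gsn, Dpep1, Mgp and Smoc2, and the members were all probe sets that the platform's gene table assigns to exactly 1 of these symbols. Of the 10 genes 9 had such a probe set, 19 probe sets in all among the 45101 on the array. Ly6a, which encodes the progenitor antigen Sca-1, had none under its symbol and was not analysed here. A probe set is a group of short probes read as 1 signal, and 16 of the 19 were bright enough to be tested, at least 1 for each of the 9 genes.

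The samples were total RNA of whole muscle from aged mice, 3 samples (replicates 51, 52 and 53) and from young mice, 3 samples (replicates 1, 2 and 3), all male, of the strain given as C57B1/6, with a normal karyotype and no treatment named. The labels give no ages in weeks or months. Whether each array holds the RNA of its own animal is not stated either, and a p-value then covers only array-to-array spread, part of which may be technical. Each sample was read on 1 Affymetrix Mouse430_2 array, with a median signal from 637 to 833, and the number of arrays limits the precision. The fast fibre myosin Myh4, a marker of the labelled tissue, averaged a signal of 597899 in aged and 663966 in young muscle. Fluidics station 1 held aged replicate 51 and the 3 young arrays, while aged replicates 52 and 53 ran on station 2 with a differently named protocol. As a measure of RNA quality, 3 prime over 5 prime signal of the actin and Gapdh controls was 2.11, 2.00 and 2.86 on the log2 scale on the aged arrays and 1.71, 1.77 and 1.75 on the young arrays. The 3 aged arrays lay above the 3 young ones (exact permutation p = 0.1, two-sided, the smallest that 3 against 3 allows).

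Fibroadipogenic progenitors are resident mesenchymal cells that lie between muscle fibres. They carry the receptor Pdgfra and the surface proteins Cd34 and Sca-1, support regeneration and make matrix, and they can become fat cells or collagen-producing fibroblasts. Few of these markers belong to a single cell type. Cd34 is also found on endothelial cells and quiescent satellite cells, Mgp in vascular smooth muscle, and Gsn in many cells including muscle fibres. In RNA of whole muscle, fewer cells of a type and less RNA per cell cannot be told apart.

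The start regions of the markers on which the comparison turns are shown because 2 of them fell and 2 lay higher in aged muscle. Each is the 300-base stretch from 250 bases before to 50 after the annotated start, from RefSeq on build GRCm38.p6, all on the plus strand and written 5′ to 3′. Capitals mark 4 motifs searched on both strands: a TATA box (TATAAA), a GC box (CCGCCC), an E box (CAGCTG) and an AP-1 element (TGANTCA). The regions are Dpt at chr1:164796413-164796712, Cd34 at chr1:194938571-194938870, Dpep1 at chr8:123185985-123186284 and the first of 3 annotated Gsn starts at chr2:35256109-35256408.
Dpt: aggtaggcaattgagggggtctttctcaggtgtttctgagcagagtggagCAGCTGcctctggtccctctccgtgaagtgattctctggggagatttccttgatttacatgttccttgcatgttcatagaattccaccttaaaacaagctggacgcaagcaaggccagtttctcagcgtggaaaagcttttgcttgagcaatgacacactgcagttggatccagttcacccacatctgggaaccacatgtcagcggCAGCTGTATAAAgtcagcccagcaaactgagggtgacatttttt
Cd34: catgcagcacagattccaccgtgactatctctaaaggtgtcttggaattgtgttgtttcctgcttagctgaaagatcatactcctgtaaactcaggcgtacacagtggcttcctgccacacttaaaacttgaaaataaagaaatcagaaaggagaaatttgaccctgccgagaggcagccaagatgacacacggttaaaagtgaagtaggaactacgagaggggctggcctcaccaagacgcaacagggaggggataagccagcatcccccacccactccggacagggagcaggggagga
Dpep1: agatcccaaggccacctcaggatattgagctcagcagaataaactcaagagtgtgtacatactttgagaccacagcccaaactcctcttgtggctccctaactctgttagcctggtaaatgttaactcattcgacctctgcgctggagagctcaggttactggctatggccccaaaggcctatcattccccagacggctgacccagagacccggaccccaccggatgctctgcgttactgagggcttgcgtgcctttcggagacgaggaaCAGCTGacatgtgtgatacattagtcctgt
Gsn: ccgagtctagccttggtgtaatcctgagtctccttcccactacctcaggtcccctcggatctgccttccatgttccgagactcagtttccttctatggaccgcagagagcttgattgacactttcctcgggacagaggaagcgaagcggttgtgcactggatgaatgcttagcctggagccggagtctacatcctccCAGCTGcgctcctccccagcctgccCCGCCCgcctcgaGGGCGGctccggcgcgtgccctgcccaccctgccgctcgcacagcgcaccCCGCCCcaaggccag
Of the 9 measured genes 6 had such an entry, 8 start regions in all, the others being Pdgfra, Pi16 and the remaining Gsn starts. The Dpt region held 1 TATA box and 2 E boxes, and its second E box and the TATA box stand side by side without overlap. The Cd34 region held none of the 4 motifs, Dpep1 held 1 E box, and this Gsn region held 3 GC boxes and 1 E box. Among all 32851 start regions of this length a TATA box was found in 13.6%, a GC box in 35.7%, an E box in 16.3% and an AP-1 element in 7.81%. The Gsn region had 20 CpG dinucleotides, Dpep1 9, Cd34 7 and Dpt 4, where the median start region had 7. A match to these letters is a description of the sequence and not evidence of binding.

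Aged was compared with young muscle to ask whether these markers move as a group or gene by gene. Their estimates did not share a direction: Cd34 and Dpt fell in aged muscle, no marker rose, and the other 7 genes did not pass the test, with changes of both signs among them. The test was limma across all 22519 tested probe sets, with Benjamini-Hochberg adjustment and a threshold of 0.05. Of the 16 tested member probe sets 2 passed, both lower in aged muscle, where 1.05% of all tested probe sets passed in either direction and 0.742% passed as lower. Without adjustment 5 of 16 had a p under 0.05, where 10% of all tested probe sets had. The aged and young arrays did not overlap for 8 of the 16, where 16.2% of all tested probe sets did not: 3 were lower in aged muscle (8.74% of all) and 5 were higher (7.41% of all). All but 1 of these 5 were probe sets of Gsn, repeated readings of 1 gene. With each gene given by its brightest probe set, 2 of 9 passed as lower and 0 as higher, where 1.39% of 11763 tested genes passed in either direction, 1% as lower and 0.391% as higher. Of the 9 genes 6 had a negative change, against 49.8% of all tested genes. Their median change was -0.28 on the log2 scale, beside 0.0028 for all tested genes, and single genes ran from -1.86 to 1.52. For 5 of the 9 genes the aged and young arrays did not overlap, against 17.2% of all tested genes. Cd34, Dpt and Mgp were lower on all aged arrays, and Gsn and Dpep1 were higher on all of them. With 1 array left out, 0 or 1 member probe sets passed.

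**Figure D1:**
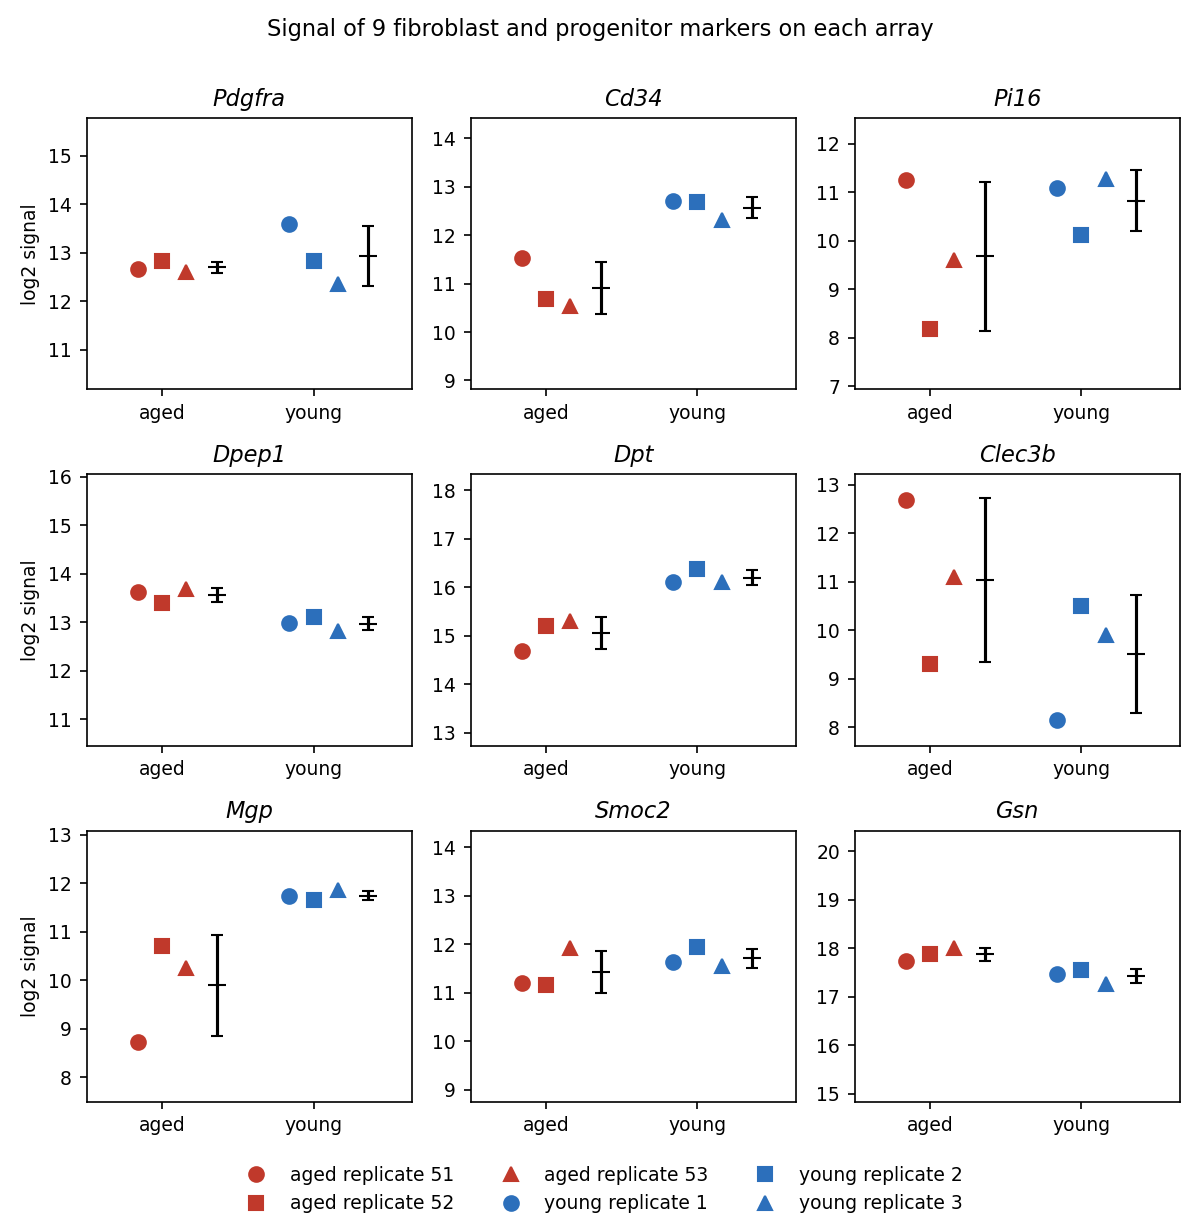
Log2 signal (vertical axes, each spanning the same number of log2 units) of the brightest probe set of each of the 9 measured genes on the 3 aged arrays (red, left) and the 3 young arrays (blue, right), with the mean and SD in black. Cd34, Dpt and Mgp lie lower on every aged array, Gsn and Dpep1 lie higher on every aged array, and the groups overlap for Pdgfra, Pi16, Clec3b and Smoc2.

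Among the surface proteins, Pdgfra, the receptor tyrosine kinase that binds platelet-derived growth factors and defines these progenitors in muscle, showed no change past the test. Its brightest probe set read 6512, 7251 and 6217 on the aged arrays (replicates 51, 52 and 53) and 12362, 7290 and 5258 on the young arrays (replicates 1, 2 and 3). The aged arrays lay within the range of the young ones, where replicate 1 was the highest. The change was -0.23 ± 0.31 (limma standard error, n = 3 per group, adjusted p = 0.832), with a 95% interval from -0.90 to 0.44. Without young replicate 1 it was 0.10. Its second probe set was at -0.09 ± 0.99 (adjusted p = 0.985), and its 3 aged signals of 1582, 140 and 2014 spanned those of the young arrays, 963, 1359 and 407. The third lay below the brightness filter, with 802, 325 and 42.3 in aged muscle and 602, 161 and 665 in young muscle.

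Cd34, a sialylated surface mucin, fell. Its only probe set read 2954, 1653 and 1475 on the aged arrays and 6665, 6580 and 5092 on the young arrays. Every aged array was lower than every young one, and aged replicate 51 was the highest of its group. The change was -1.65 ± 0.34, a level 3.14-fold higher in young muscle (adjusted p = 0.0423, 95% interval from -2.40 to -0.90). Among the arrays of station 1 alone, aged replicate 51 against the young arrays, it was -1.04. The station as a covariate gave the same estimate (adjusted p = 0.279), and the RNA quality ratio as a covariate gave -1.29 (adjusted p = 0.331). Cd34 passed without aged replicate 51 (adjusted p = 0.0109) and did not pass when any other array was left out (adjusted p from 0.0673 to 0.232).

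Pi16, a member of the CAP protein family that marks fibroblasts around vessels, varied widely. Its tested probe set read 2440, 290 and 779 on the aged arrays and 2166, 1112 and 2491 on the young arrays. Aged replicate 51 stood at the level of young muscle and the other aged arrays below it. The change was -1.15 ± 0.72 (adjusted p = 0.623), its 95% interval reached from -2.71 to 0.42, and within station 1 it was 0.43. Its other probe set was too dim to be tested, with signals of 312, 87.4 and 105 in aged and 170, 65 and 100 in young muscle.

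Dpep1, a membrane-anchored dipeptidase that splits leukotriene D4, was higher on every aged array without passing. Its brighter probe set read 12564, 10819 and 13134 on the aged arrays and 8093, 8803 and 7246 on the young arrays. The groups did not overlap, and the spread within each was small (SD 0.15 aged and 0.14 young on the log2 scale). The change was 0.60 ± 0.22 (adjusted p = 0.37, unadjusted p = 0.0203). It was 0.65 within station 1, 0.46 with the RNA quality ratio as a covariate, and between 0.52 and 0.68 with 1 array left out. The dimmer probe set was at 0.56 ± 0.82 (adjusted p = 0.842) with overlapping groups.

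Among the secreted proteins, Dpt, or dermatopontin, a small matrix protein that binds decorin and promotes collagen fibril assembly, fell. Its only probe set read 26409, 37747 and 40367 on the aged arrays and 70179, 84897 and 70694 on the young arrays. The groups did not overlap, and aged replicate 51 was the lowest. The change was -1.13 ± 0.22, a level 2.19-fold higher in young muscle (adjusted p = 0.03, 95% interval from -1.61 to -0.65). Within station 1 it was -1.51. The station as a covariate gave the same estimate (adjusted p = 0.0264), and the RNA quality ratio as a covariate gave -1.35 (adjusted p = 0.0786). Dpt passed without aged replicate 53 (adjusted p = 0.0115) and did not pass when any other array was left out (adjusted p from 0.07 to 0.203).

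Mgp, the matrix Gla protein, a vitamin K-dependent inhibitor of soft tissue calcification, had the most negative change of the 9 genes and did not pass. It read 423, 1667 and 1214 on the aged arrays and 3399, 3228 and 3702 on the young arrays. All aged arrays were lower, the young ones were close together, and aged replicate 51 stood far below the other aged arrays. The change was -1.86 ± 0.51 (adjusted p = 0.155, unadjusted p = 0.00326). Within station 1, where aged replicate 51 is the aged array, it was -3.02. With the station as a covariate it was also -3.02 and passed (adjusted p = 0.0243), while without aged replicate 51 it was -1.27 (adjusted p = 0.194).

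Clec3b, or tetranectin, a secreted lectin-like protein that binds plasminogen, had the most positive change of the 9 genes and the largest standard error among them. It read 6590, 633 and 2197 on the aged arrays and 284, 1439 and 951 on the young arrays. The groups overlapped, and aged replicate 51 was the highest of the 6 arrays. The change was 1.52 ± 0.83 (adjusted p = 0.575, 95% interval from -0.28 to 3.32), and it was 0.69 without aged replicate 51. The array with the highest Clec3b signal was thus the array with the lowest Mgp and Dpt signals.

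Smoc2, a calcium-binding matrix protein related to Sparc, did not pass. Its brighter probe set read 2356, 2284 and 3883 on the aged arrays and 3183, 3909 and 3005 on the young arrays. Aged replicate 53 lay within the young range, and the change was -0.28 ± 0.34 (adjusted p = 0.812, 95% interval from -1.01 to 0.45). The other probe set was at -0.23 ± 0.71 (adjusted p = 0.93).

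Gsn, or gelsolin, which severs and caps actin filaments and has a secreted form, had 6 probe sets. The brightest read 219470, 242430 and 261999 on the aged arrays and 182865, 191967 and 157458 on the young arrays. All aged arrays were higher, and the change was 0.44 ± 0.21 (adjusted p = 0.517, 95% interval from -0.02 to 0.91). Of the 5 tested Gsn probe sets 4 were higher on every aged array, with changes between 0.40 and 0.55, and none of the 5 passed. The most positive was the third brightest, at 0.55 ± 0.22 (adjusted p = 0.415, unadjusted p = 0.0274). After quantile normalization it was at 0.73 (adjusted p = 0.0806). The exception was at -0.53 ± 0.62 with overlapping groups, and the sixth was too dim to be tested. Of the 5, 4 carry a suffix that marks probes prone to bind related transcripts, and the one without it was at 0.40 ± 0.24 (adjusted p = 0.606).

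**Figure D2:**
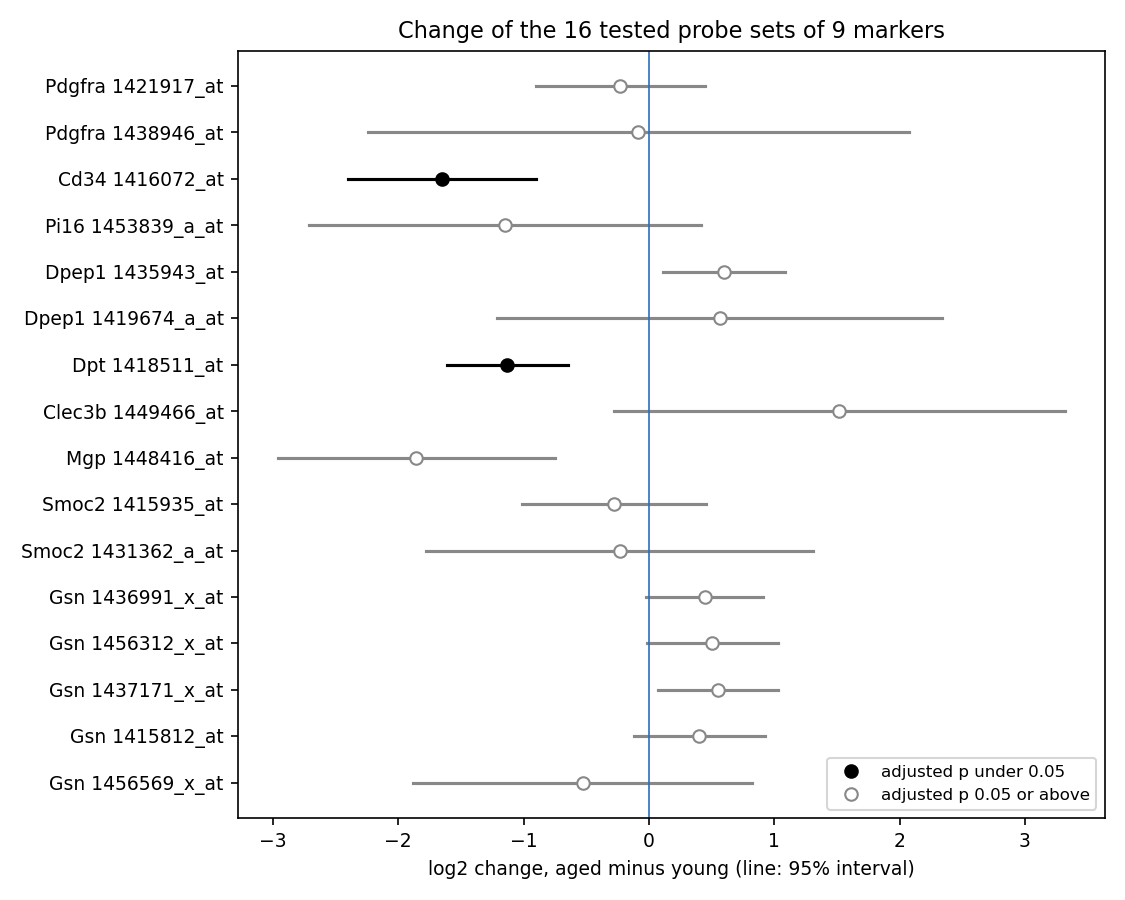
Log2 change, aged minus young (horizontal axis), of the 16 tested probe sets of the 9 genes, with 95% intervals from limma. Filled black points passed an adjusted p of 0.05: these are Cd34 at -1.65 and Dpt at -1.13. To the right of 0 lie 4 of 5 Gsn probe sets, both of Dpep1 and that of Clec3b, at 1.52.

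Differences between markers within an array do not depend on the factor by which each array was scaled. For 36 pairs of the 9 genes the log2 difference of their signals was therefore compared between groups. In 17 pairs (47.2%) the aged and young arrays did not overlap, against 16.5% of all pairs of tested genes. Each of these 17 had the smallest exact permutation p that the design allows (0.1, two-sided, adjusted p = 0.212 over 36 pairs), so none could pass, and pairs that share a gene are not independent. Cd34 minus Gsn shifted by -2.10 in aged muscle, Dpt minus Gsn by -1.57, and Gsn minus Mgp by 2.30. Pdgfra minus Cd34 shifted by 1.42, also without overlap. Pdgfra minus Smoc2 shifted by 0.05 and Gsn minus Dpep1 by -0.15, both with overlapping groups.

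Other genes of stromal fibroblasts were read beside these markers, and 6 of the 8 collagen genes among them fell. Of 38 such genes 37 had a probe set and 34 were bright enough to be tested. Of these 34, 11 fell, 0 rose and 23 did not pass, where 1% of all tested genes passed as lower. Their changes were negative for 27 and positive for 7. The groups did not overlap for 21 of them, against 17.2% of all tested genes. Among the 21, Fbln1 (1.85 ± 0.75) and Gli1 (2.01 ± 0.88) were higher on every aged array, named after their values were seen. The list's median change was -1.10. The collagen chains Col1a1 (-5.71 ± 0.32, adjusted p = 3.26e-06), Col1a2 (-4.62 ± 0.22, adjusted p = 1.48e-06) and Col3a1 (-3.89 ± 0.21, adjusted p = 3.26e-06) fell most. Summed over the list the signal ran from 149951 to 167903 on the aged arrays and from 881522 to 1147410 on the young arrays. Its largest parts on every young array were Col1a1, Col1a2 and Col3a1, which averaged 323902, 207752 and 156471 there. On the aged arrays these genes averaged 5987, 8576 and 10705. The sum therefore does not show a fall shared by the whole list. Summed over the 9 markers the signal ran from 279717 to 331265 on the aged arrays and from 255896 to 309224 on the young arrays, ranges that overlap. Most of that sum is Gsn, and without it the other 8 summed to between 60247 and 69266 on the aged arrays and between 98438 and 117257 on the young arrays, without overlap. This sum was added after the values were seen. Its largest part on every array was Dpt, from 26409 to 40367 on the aged arrays and from 70179 to 84897 on the young arrays. It therefore does not show a fall shared by the 8 genes, and Dpep1 and Clec3b in it had positive changes. Of the stromal genes 6 passed with the RNA quality ratio as a covariate and 7 with the station as a covariate. Sparc, a relative of Smoc2 that binds collagen, fell by 3.08 (adjusted p = 7.19e-05), the only call among 14 tested relatives of the markers. Of the 3 tested Sparc probe sets 2 had a negative change and 2 passed.

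The PDGF ligands and the partner receptor of Pdgfra did not pass. Pdgfa was at -0.47 ± 0.30, Pdgfc at -0.56 ± 0.37 and Pdgfd at -1.36 ± 0.79, while Pdgfb was at 1.27 ± 0.72. Pdgfrb, the receptor of pericytes, was at -0.89 ± 0.44 (adjusted p = 0.532). Pdgfa and Pdgfc were lower on every aged array, and the other 3 overlapped, where 17.2% of all tested genes did not overlap. Pdgfa and Pdgfb each had 2 tested probe sets, of which 1 had a negative change.

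Markers of other cells that carry some of these proteins were read beside them. Each count is of markers bright enough to be tested, so dim ones are left out. Among all tested genes 1% passed as lower and 0.391% as higher, 49.8% had a negative change, and 17.2% had groups that did not overlap. Of 14 tested endothelial markers 0 fell and 1 rose, the fatty acid carrier Fabp4 (1.11 ± 0.23, adjusted p = 0.0433), which fat cells also make, and their median was -0.17. Fabp4 passed under 8 of 19 alternatives, and of its 4 tested probe sets 1 passed and 1 had a negative change. The summed signal of the 14 ran from 149983 to 235391 on the aged arrays and from 105953 to 117130 on the young arrays, most of it from Fabp4. Without Fabp4 the other 13 summed to between 29611 and 38802 on the aged arrays and between 40817 and 42405 on the young arrays, so the order of the groups turned. This sum, too, was added after the values were seen. The brightest of the 13 on every young array was Aqp1, which did not pass (-1.09 ± 0.32, adjusted p = 0.2). It read from 3114 to 7381 on the aged arrays and from 9160 to 12800 on the young arrays. Of the 14 markers 10 had a negative and 4 a positive change. Of 8 tested satellite cell markers 0 passed, with a median of -0.24, among them Sdc4 (-0.74 ± 0.27) and Chodl (-1.23 ± 0.34). Their changes were negative for 4 and positive for 4. On every aged array 3 were lower, Sdc4, Chodl and Pax7 (-1.87 ± 0.97), and 2 were higher, Cdh15 (1.10 ± 0.55) and Itga7 (1.62 ± 0.67). Pax7, Cdh15 and Itga7 were named after their values were seen, and Pax7 lay close to the brightness filter. Of 7 pericyte and smooth muscle markers 1 fell, the smooth muscle actin Acta2 (-1.0 ± 0.19, adjusted p = 0.0275, past the test under 8 of 18 alternatives), and their median was -0.23. The only tested probe set of Acta2 is of the kind set aside elsewhere here as cross-hybridising. Of the 7 markers 4 had a negative and 3 a positive change, and 3 had groups that did not overlap. Besides Acta2 these were Rgs5 (-1.0 ± 0.27), lower, and Abcc9 (0.59 ± 0.21), higher on every aged array, named after their values were seen. Of 6 fat cell markers 3 passed as higher, 0 fell and 3 did not pass. Cebpa (2.57 ± 0.44), Retn (2.35 ± 0.36) and Adipoq (1.89 ± 0.30) rose. Of these 3 calls 0 held with the station as a covariate, 1 among station 1 arrays alone and 1 with the RNA quality ratio as a covariate. Their summed signal ran from 39317 to 67407 on the aged arrays and from 10479 to 18849 on the young arrays. All 10 tendon markers had a negative change and 3 fell, Tnmd (-3.47 ± 0.60), Kera (-2.40 ± 0.32) and Fmod (-1.46 ± 0.23). All 6 tested Fmod probe sets had a negative change, but only 1 passed, and it is of the cross-hybridising kind. Tnmd and Kera did not pass with the RNA quality ratio as a covariate, nor Kera and Fmod with the station as one, and Tnmd did not pass when any 1 young array was left out, nor Fmod without young replicate 1 or 2. Of 5 Schwann cell markers Mbp (-2.85 ± 0.27) and Pmp22 (-2.37 ± 0.30) fell. The Mbp probe set given is also of the cross-hybridising kind, and of 7 tested for Mbp 6 had a negative change and 4 passed. Of 10 blood cell and macrophage markers 0 passed, with Csf1r at 0.29 ± 0.22 and C1qb at 0.31 ± 0.35. Of 10 muscle fibre markers 0 passed, all with a negative change. Their median was -0.61, beside -0.28 for the 9 progenitor and fibroblast markers, and 7 of the 10 were lower on every aged array. Among the 10 were Myh4 (-0.15 ± 0.26), whose groups overlapped, and the skeletal actin Acta1 (-0.63 ± 0.22), lower on every aged array. No marker was listed at 0, and the part of other cells in the changes of Cd34, Dpt and Mgp was not tested.

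**Figure D3:**
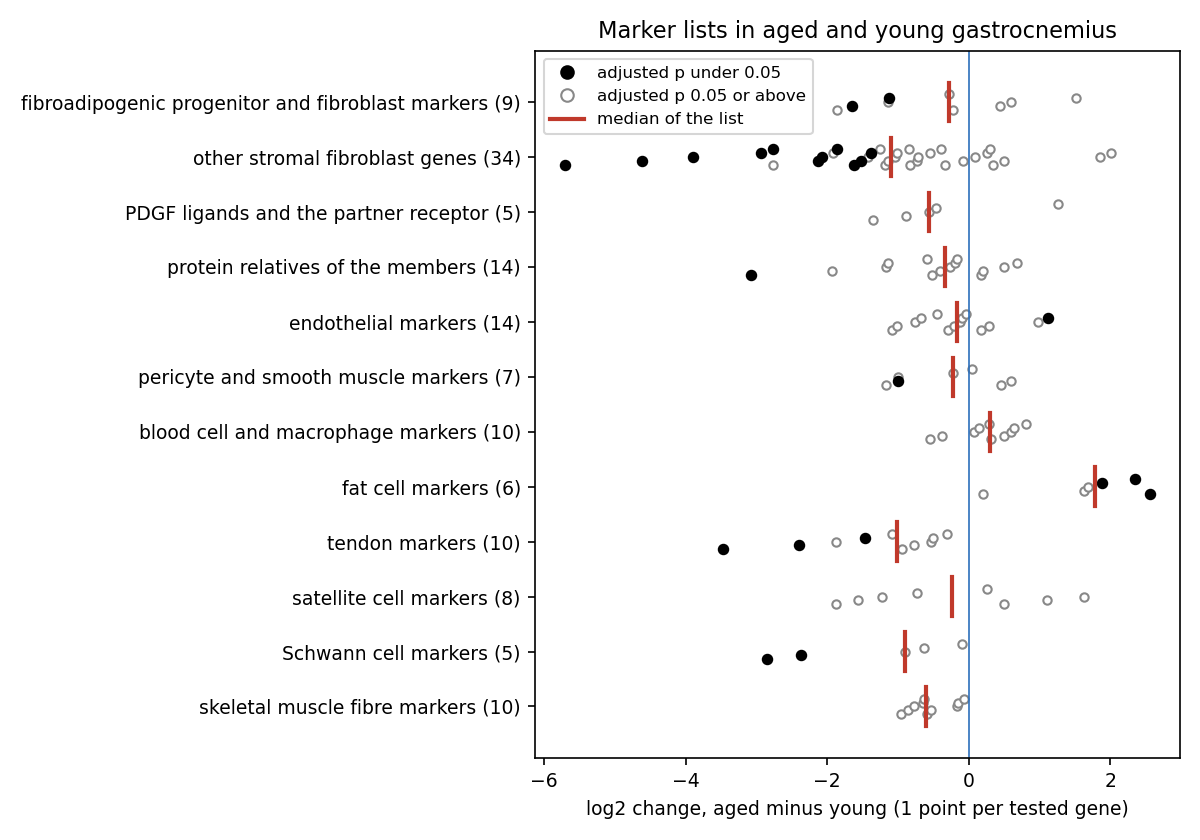
Log2 change, aged minus young (horizontal axis), of each tested gene in the 9 progenitor and fibroblast markers and in 11 other lists, with the number of tested genes in brackets. The 9 markers spread on both sides of 0 around a median of -0.28, the other stromal genes centre on -1.10 and the fat cell markers on 1.78.

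The profile of the 9 markers, each standardised over the 6 arrays and then averaged, was -0.12, -0.45 and 0.09 on the aged arrays and 0.26, 0.34 and -0.12 on the young arrays. These groups overlapped. The 5 other tested genes whose log2 signal followed this profile most closely over the 6 arrays were Pheta1, Slirp, Tmem185b, Snrnp70 and Creb3l1, with Pearson r from 0.984 to 0.991. None of these 5 passed the test for age (adjusted p from 0.565 to 0.828). They were picked as the highest r among all tested genes, over only 6 arrays, and the profile averages markers with changes of both signs. Whether r values this high exceed what such a choice gives by chance was not tested.

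**Figure D4:**
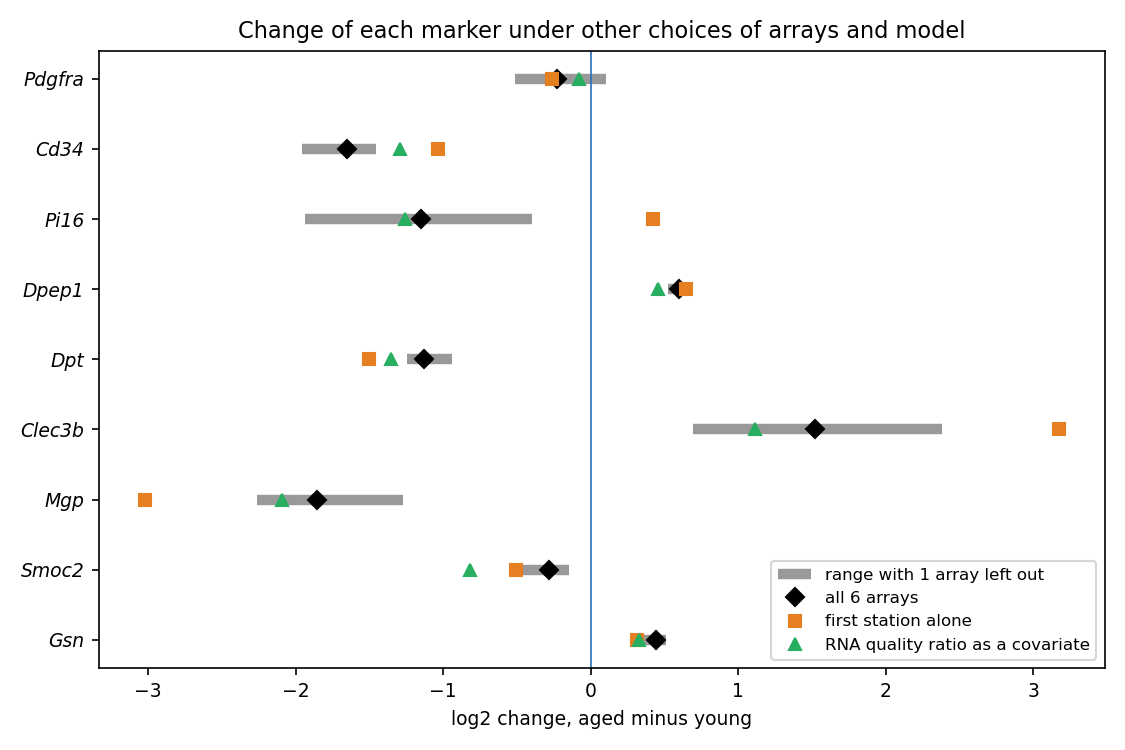
Log2 change, aged minus young (horizontal axis), of the brightest probe set of each gene with all 6 arrays (black), among station 1 arrays alone (orange), with the RNA quality ratio as a covariate (green), and as a range with 1 array left out (grey). Cd34, Dpt, Mgp and Smoc2 stay below 0 and Gsn, Dpep1 and Clec3b above 0 in all of these, while Pi16 is at 0.43 within station 1 and Pdgfra at 0.10 without young replicate 1.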

How the data were processed

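Biotin-labelled RNA of gastrocnemius was hybridised to 6 arrays, per the labels' protocols. Per the submitters' processing notes the authors used MAS5, whose version is not given in the sources, and deposited a linear intensity for each probe set. Each array had a mean of 1500 after trimming 2% at each end, found from the values; no source used here names the scaling step. On the log scale the spread of MAS5 signals grows toward low intensity. Run settings were used for the fluidics station alone. No array duplicated another.

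From there, intensities were taken to log2, 64 control probe sets were left out, and probe sets whose mean log2 signal fell short of the median, 9.08, were not tested, because detection calls were not used here. The test of aged against young arrays was that of limma 3.58.1 under R 4.3.3 (lmFit, eBayes with trend, two-sided, Benjamini-Hochberg over 22519 probe sets, threshold 0.05). A gene was represented by its tested probe set with the highest mean signal. Symbols came from the platform's gene table, which gives 1 symbol for 34945 probe sets and several for 932, which stayed unnamed. The RNA quality ratio is the mean over actin and Gapdh controls of the log2 ratio of 3 prime to 5 prime signal. Python 3.11.15 with numpy 2.4.6, pandas 2.3.3 and matplotlib 3.10.9 served for exact tests and figures. The fit was tested on simulated data.

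The members and lists were chosen with earlier results of these data known, so no list was tested and counts and medians are descriptions. Named were all members, the PDGF genes, up to 3 called genes of each other list (or the 2 brightest where none was called) and the 5 genes most like the members' profile. The alternatives covered median centring, quantile normalization, no brightness filter or one at the 75th percentile, a pseudocount of 219, array weights, eBayes without trend or robust, an unmoderated linear model, each array left out, station and RNA quality as covariates, removal of cross-hybridising probe sets, and other choices of probe set. Station 1 arrays alone were added after seeing the data.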

Additional observations from a re-analysis of the deposited data

How the results depend on the processing

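The count of member probe sets lower in aged muscle, 2, was also 2 with quantile normalization, no filter, the stricter filter, a pseudocount, array weights, robust moderation and without cross-hybridising probe sets, each time Cd34 and Dpt. It was 1 with median centring (Cd34), which moved the median change of all tested probe sets from 0.0079 to -0.11, and 0 without the trend, with the unmoderated linear model and with the RNA quality ratio as a covariate. With 1 array left out it ranged from 0 to 1: Cd34 without aged replicate 51, Dpt without aged replicate 53, and none without aged replicate 52 or young replicate 1, 2 or 3. With the station as a covariate, and among station 1 arrays alone, it was 2, Dpt and Mgp. These are 1 result and not 2, because station 2 held aged arrays alone: both estimate the change from aged replicate 51 against the young arrays, and their estimates are equal. Among station 1 arrays alone the spread of the lone aged array is assumed to be that of the young ones. The count of member probe sets higher in aged muscle was 0 under all 19 alternatives. The median change of the 9 genes was negative under all 21 alternatives, from -0.82 with the RNA quality ratio as a covariate to -0.09 over all 19 member probe sets, and from -0.53 to -0.22 with 1 array left out. The count of stromal genes that fell, 11, was 6 to 12 under the alternatives other than no trend (3) and the unmoderated model (0). The causes were not tested. No paired analysis was possible because the groups share no replicate number. The median standard error of a tested probe set was 0.56, against 0.34 for the member probe sets, which sets the size of change that 3 arrays a group can resolve.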
